A study of Mus musculus with 8 samples.

Results

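The complement components and regulators described here are the genes C1ra, Serping1, C3, C4b, Cfb, C1qa, C1qb and C1qc, and a probe set (a group of oligonucleotides that together report 1 transcript) counted for a gene where the annotation assigned it that symbol alone. By that rule 6 of the 8 genes had values, through 9 probe sets, out of 8251 genes and 12422 probe sets that were not controls. C4b appeared only on probe sets annotated to more than 1 gene, so no value is given for it, and C3 was not analysed here. The RNA came from cultured mouse aortic endothelial cells and was hybridised to Affymetrix mouse arrays, 1 sample to an array. Subconfluent cultures, at under 50% confluency, gave 4 arrays, and mature confluent monolayers gave the other 4, with 6000000 cells per sample. The labels name no genotype, strain, treatment, age or passage for either group. Nothing in them says that the cultures were separate isolates, so p-values measure the spread between these samples only.

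Complement is a set of blood and tissue proteins that tag and puncture microbes and damaged cells. In its classical pathway the recognition molecule C1q, built of the chains encoded by C1qa, C1qb and C1qc, activates the proteases C1r and C1s, and these cleave C4 and C2. All routes meet at C3, and factor B (Cfb) runs the amplifying alternative pathway, while the C1 inhibitor encoded by Serping1 shuts C1r and C1s off. The liver makes most circulating complement, macrophages make most C1q, and stromal and endothelial cells make several components locally.

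Values are signals that the authors scaled to a target of 500 on every array. Scale factors ran from 3.05 to 13.3, and the noise of each array times its scale factor was 7.86 to 34.0 signal units. Of 14 endothelial markers with a probe set, 1 reached a mean signal of 200, Eng, at 832. Pecam1 averaged 111 and Cdh5 13.0, so most defining markers of the labelled cell type were at low signal, whereas 10 of 15 fibroblast and pericyte markers reached 200. Subconfluent and Confluent arrays with the same experiment number deviated together (correlations of 0.348 to 0.516 across probe sets), and the numbers were taken to pair them. Chip lot A held replicate 1 of both groups, and lot C held Subconfluent replicates 3 and 4 and Confluent replicate 3. Lot B held only Confluent replicates 2 and 4, and lot D only Subconfluent replicate 2, so lot and group were partly confounded. The number of arrays limits the precision.

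RefSeq promoter windows (build GRCm38.p6, 250 bases before to 50 after the start of the gene) were found for 3 of the 6 genes with values. The window of C1ra is shown because C1ra fell, and that of C1qb because 1 of its probe sets separated the groups at low signal. Capitals mark matches, on either strand, to motifs of factors known to induce complement genes. The motifs searched were STAT (TTCNNNGAA), the IRF core (GAAA on both sides of 2 free bases), NF-kB (GGG and CC around 5 free bases) and C/EBP (TTNNGNAA), none of which overlapped another motif in these 2 windows.
C1ra, chr6:124512371-124512670, plus strand: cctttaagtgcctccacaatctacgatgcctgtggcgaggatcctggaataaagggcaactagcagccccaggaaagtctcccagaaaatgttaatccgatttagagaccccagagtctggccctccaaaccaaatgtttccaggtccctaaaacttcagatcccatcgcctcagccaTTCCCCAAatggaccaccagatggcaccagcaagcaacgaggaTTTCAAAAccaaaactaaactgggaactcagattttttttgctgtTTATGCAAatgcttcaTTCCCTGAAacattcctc
C1qb, chr4:136886151-136886450, minus strand: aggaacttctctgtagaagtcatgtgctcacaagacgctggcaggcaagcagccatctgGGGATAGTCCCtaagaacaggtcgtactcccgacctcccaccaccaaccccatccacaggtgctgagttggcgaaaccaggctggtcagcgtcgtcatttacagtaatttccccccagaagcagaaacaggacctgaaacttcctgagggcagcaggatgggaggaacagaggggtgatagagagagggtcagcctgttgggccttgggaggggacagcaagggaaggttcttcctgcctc
The C1ra window held 3 C/EBP matches and, at base 283 of the window, the STAT match TTCCCTGAA, which lies after the gene start. The C1qb window held a pair of NF-kB matches that overlap by all but 1 base, starting at bases 60 and 61. Over all 32851 windows of this length, 40.7% held a C/EBP match, 8.30% a STAT match, 50.8% an NF-kB match and 3.44% an IRF match. A match describes letters and is not evidence of a bound factor.

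Transcripts of the C1r protease and of its inhibitor were both lower in subconfluent cells. Both of the members with a mean signal of at least 200 fell and 0 rose, where 4.06% of all 6007 tested probe sets fell and 2.75% rose. A call here is an adjusted p under 0.05 by limma on log2(signal + 50), an addition that shrinks the fold of weak signals. The other 4 members (Cfb, C1qa, C1qb, C1qc) lay under that minimum on every probe set and are described further on. In bulk RNA, fewer cells that make a transcript and less transcript per cell cannot be told apart.

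C1ra encodes a mouse C1r, the protease that starts the classical cascade. Its stronger probe set gave signals of 1070, 648, 777 and 964 on Subconfluent replicates 1 to 4, against 4694, 1876, 2398 and 2515 on Confluent replicates 1 to 4. Every Subconfluent array was under every Confluent array, and Confluent replicate 1 stood well above the other Confluent arrays. The means were 865 ± 189 in subconfluent and 2871 ± 1247 in confluent cells (SD, n = 4), and the log2 difference was -1.61 ± 0.27 (SE, limma adjusted p = 0.0100), a 3.06-fold fall with a 95% interval of -2.20 to -1.03 on the log2 scale. Within experiments 1 to 4 the log2 difference was -2.08, -1.46, -1.57 and -1.34, so all 4 pairs went the same way. Of the tested probe sets, 52 had a more negative difference.

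The weaker C1ra probe set read 367, 24.2, 377 and 478 on Subconfluent replicates 1 to 4, against 1125, 295, 844 and 837 on Confluent replicates 1 to 4. Here the groups overlapped, because Confluent replicate 2 lay under 3 of the Subconfluent arrays, and Subconfluent replicate 2 was far under the rest. Its log2 difference was -1.38 ± 0.58 (SE) and did not pass (limma adjusted p = 0.161), but it passed with the experiment number as a block (adjusted p = 0.00525), a fit in which 11.3% of probe sets fell. The names of both probe sets mark them as departures from the standard design (suffixes f and i). The mouse genome also holds the close copy C1rb, so the share of each copy in these signals is uncertain.

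Serping1 encodes the C1 inhibitor, a secreted serpin that inactivates C1r and C1s and also restrains the contact system of coagulation. Its signals were 493, 343, 518 and 477 on Subconfluent replicates 1 to 4, against 2827, 762, 1139 and 1311 on Confluent replicates 1 to 4. The groups did not overlap, and Subconfluent values were close to each other while Confluent replicate 1 was the highest of all 8. The means were 458 ± 78.1 in subconfluent and 1510 ± 908 in confluent cells (SD, n = 4), with a log2 difference of -1.47 ± 0.32 (SE, limma adjusted p = 0.0274), a 2.77-fold fall, and a 95% interval of -2.18 to -0.76. Within experiments 1 to 4 the difference was -2.41, -1.05, -1.07 and -1.37. The call of the fit without a block depended on single arrays. It ended without any 1 of Subconfluent replicates 1, 2 and 4 or Confluent replicates 3 and 4 (limma adjusted p = 0.0553 to 0.0712). Without Confluent replicate 1 the difference was -1.12, still past the threshold (adjusted p = 0.0243). In the same fit C1ra kept its call without each of the 8 arrays in turn (adjusted p = 0.00663 to 0.0297). With the experiment number as a block, where 11.3% of all tested probe sets fell, Serping1 passed (limma adjusted p = 0.00402). It also passed that fit when each pair was left out in turn (adjusted p = 0.00627 to 0.0215).

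Within chip lots A and C, which held both groups, the falls kept their direction. Lot A is the experiment 1 pair again, 1 array against 1 with no test. The log2 difference there was -2.08 for C1ra and -2.41 for Serping1. In lot C, with 2 Subconfluent arrays against 1 Confluent array, it was -1.42 and -1.12 (limma adjusted p = 0.174 and 0.190). With the lot as a fixed block both passed, at -1.70 and -1.67 (limma adjusted p = 0.00792 and 0.0214). That fit draws its group difference from lots A and C only, because lots B and D each held a single group.

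**Figure D1:**
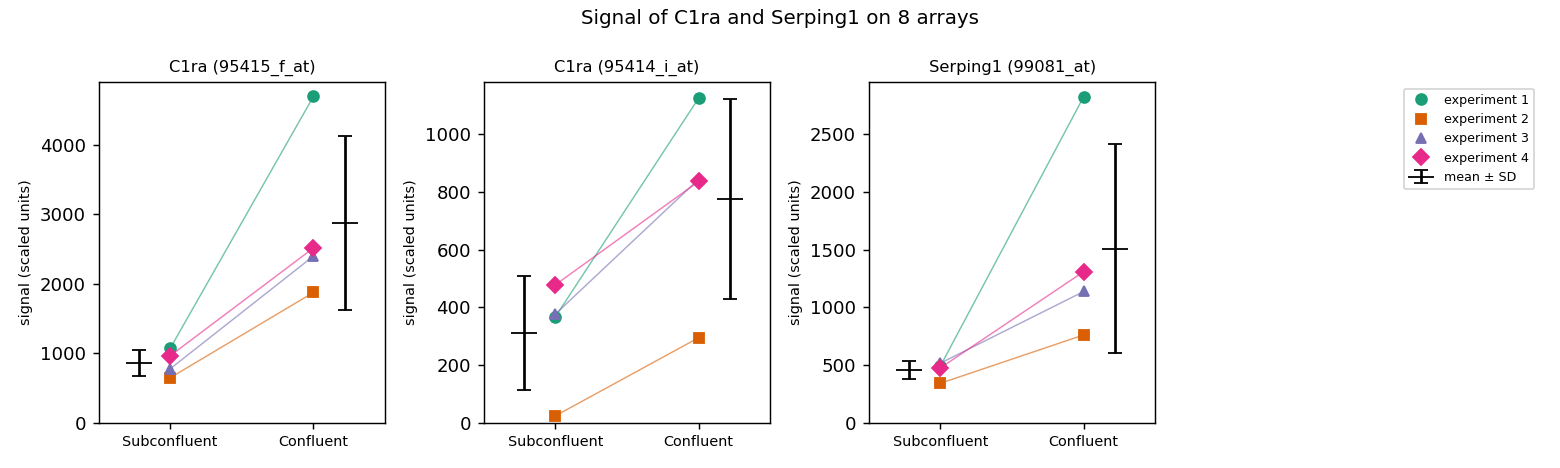
Scaled signal (vertical axes, from 0) of the 2 C1ra probe sets and the Serping1 probe set in Subconfluent (left) and Confluent (right) arrays. Points joined by a line share an experiment number, and black bars are means ± SD (n = 4). Confluent replicate 1 (experiment 1) is highest in each panel, and only the weaker C1ra probe set has overlapping groups.

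C1ra and Serping1 had like profiles over the 8 arrays, a likeness that includes their fall between the groups. Likeness within each group was not measured. Likeness was measured as the root mean square difference of 2 genes' log2(signal + 50) over the 8 arrays, each gene centred on its own mean, and compared over 4669 other genes. Between C1ra and Serping1 it was 0.20, which put Serping1 at rank 4 for C1ra, against a median gene at 0.93. The 3 genes nearest to C1ra were the cyclin gene Ccng2 (0.16), the elastin gene Eln (0.17) and the lysosomal protease gene Lgmn (0.18). Those nearest to Serping1 were Hsd17b11, a steroid dehydrogenase gene (0.18), the lysosomal glycosidase gene Naglu (0.19) and H2-K1, which encodes a classical antigen-presenting molecule (0.19) and whose probe set can detect relatives. All 6 of these genes fell as well. The measure contains the difference between the groups, so genes with a fall of like size score as near.

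The C1q chains did not move as a set, and their signals were low. C1qa, C1qc and C1qb lie next to each other on chromosome 4, and C1q is assembled from all 3 chains. The mean signal of the stronger or only probe set was 133 for C1qb, 170 for C1qc and 53.0 for C1qa. Of the 9 member probe sets, 3 had all Subconfluent values under all Confluent values, where 5.87% of all 12422 probe sets did so. They were the stronger probe sets of C1ra and C1qb and the only one of Serping1.

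C1qb read 88.0, 105, 90.7 and 71.1 on Subconfluent replicates 1 to 4, against 237, 213, 148 and 111 on Confluent replicates 1 to 4. The groups did not overlap, though the highest Subconfluent value and the lowest Confluent value nearly met. This probe set has the suffix i, like the weaker C1ra probe set, so it too is marked as a departure from the standard design. Its log2 difference was -0.68, negative in 4 of 4 pairs, and in a fit without a signal minimum, where 1.09% of probe sets fell, it did not pass (limma adjusted p = 0.162, 95% interval -1.20 to -0.17, 0.0945 with the pairs as a block). The second C1qb probe set averaged 8.50 ± 4.02 in subconfluent and 11.4 ± 5.55 in confluent cells (SD, n = 4), around the arrays' noise, with a log2 difference of -0.07.

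C1qc read 197, 190, 211 and 197 on Subconfluent replicates 1 to 4, against 260, 78.5, 60.9 and 165 on Confluent replicates 1 to 4. The Subconfluent values varied by 4.49% (coefficient of variation) and the Confluent values by 64.8%, with Confluent replicate 1 above and the other Confluent arrays below every Subconfluent array. The log2 difference was 0.50, positive in 3 of 4 pairs, with an interval of -0.18 to 1.18 (limma adjusted p = 0.475 without a signal minimum). Leaving out Confluent replicate 3 gave a C1qc difference of 0.28, and leaving out Confluent replicate 1 gave 0.78.

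C1qa read 21.4, 125, 89.8 and 35.8 on Subconfluent replicates 1 to 4, against 26.4, 35.1, 27.2 and 62.7 on Confluent replicates 1 to 4. The groups overlapped, and Subconfluent replicates 2 and 3 were high. Its log2 difference was 0.35, positive in 2 of 4 pairs, with an interval of -0.26 to 0.97 (limma adjusted p = 0.609 without a signal minimum). Leaving out Subconfluent replicate 2 gave a C1qa difference of 0.13, and leaving out Subconfluent replicate 1 gave 0.56.

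Cfb encodes factor B, which carries the protease of the alternative pathway convertase, and both of its probe sets were weak. The first read 74.9, 69.8, 27.6 and 70.5 on Subconfluent replicates 1 to 4, against 120, 113, 107 and 20.3 on Confluent replicates 1 to 4. Confluent replicate 4 was the lowest of all 8, so the groups overlapped, and the log2 difference was -0.28 (interval -0.95 to 0.38, limma adjusted p = 0.732 without a signal minimum), between -0.59 without Confluent replicate 4 and -0.12 without Subconfluent replicate 3. On the second, the means were 49.2 ± 20.4 in subconfluent and 76.2 ± 28.7 in confluent cells (SD, n = 4), and the log2 difference was -0.35, negative in 4 of 4 pairs (interval -0.83 to 0.14, adjusted p = 0.498). Without a signal minimum the members that passed were C1ra (adjusted p = 0.0177) and Serping1 (0.0481).

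**Figure D2:**
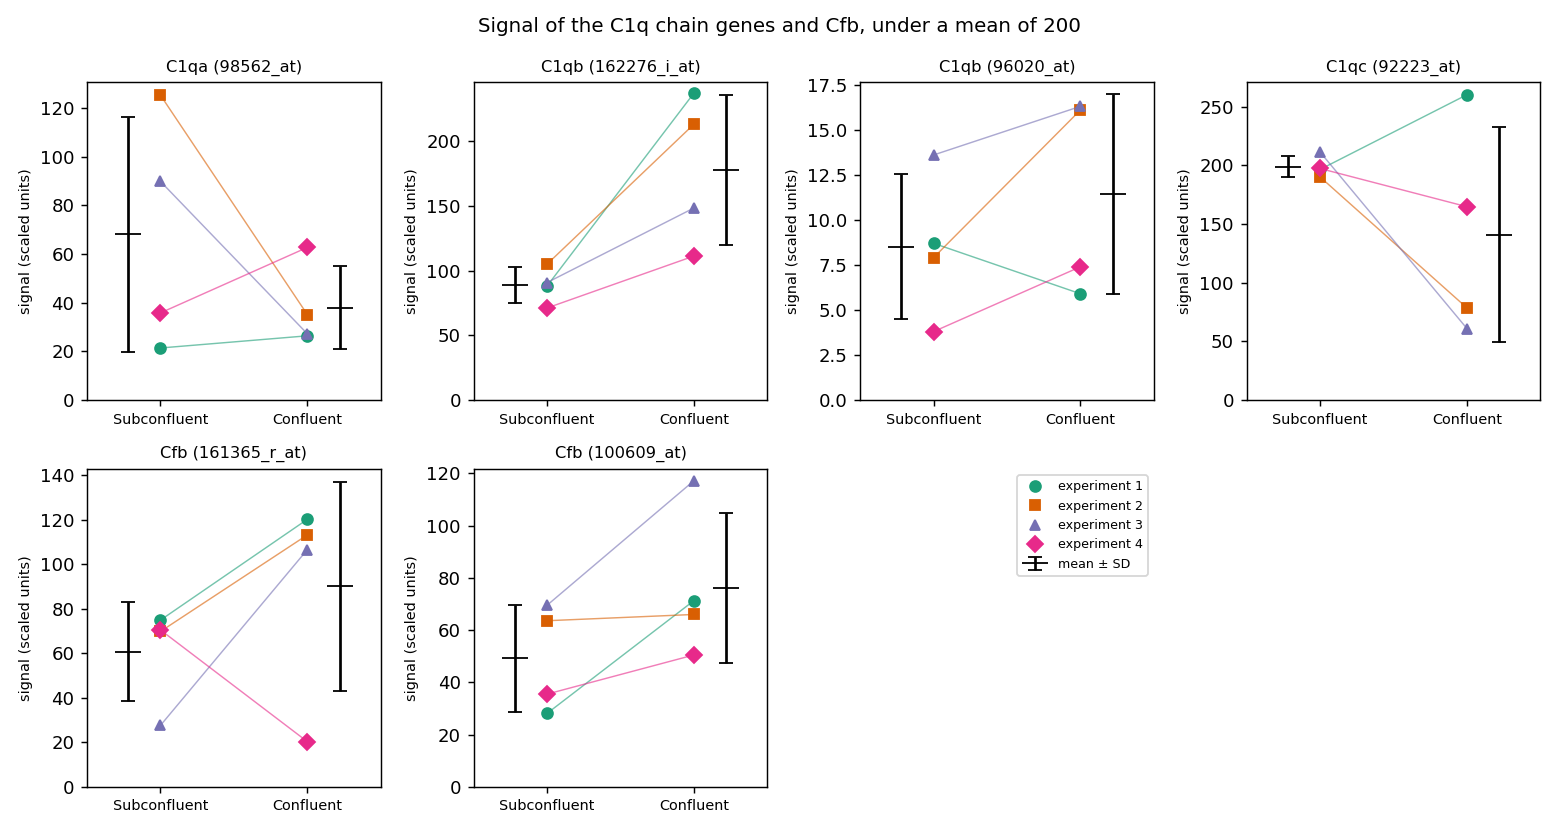
Scaled signal (vertical axes, from 0, differing in range) of the 6 probe sets of C1qa, C1qb, C1qc and Cfb, all with a mean under 200, in Subconfluent (left) and Confluent (right) arrays. Lines join arrays of the same experiment, and black bars are means ± SD (n = 4). The stronger C1qb probe set alone has groups that do not overlap, and C1qc is tight in Subconfluent and spread in Confluent arrays.

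**Figure D3:**
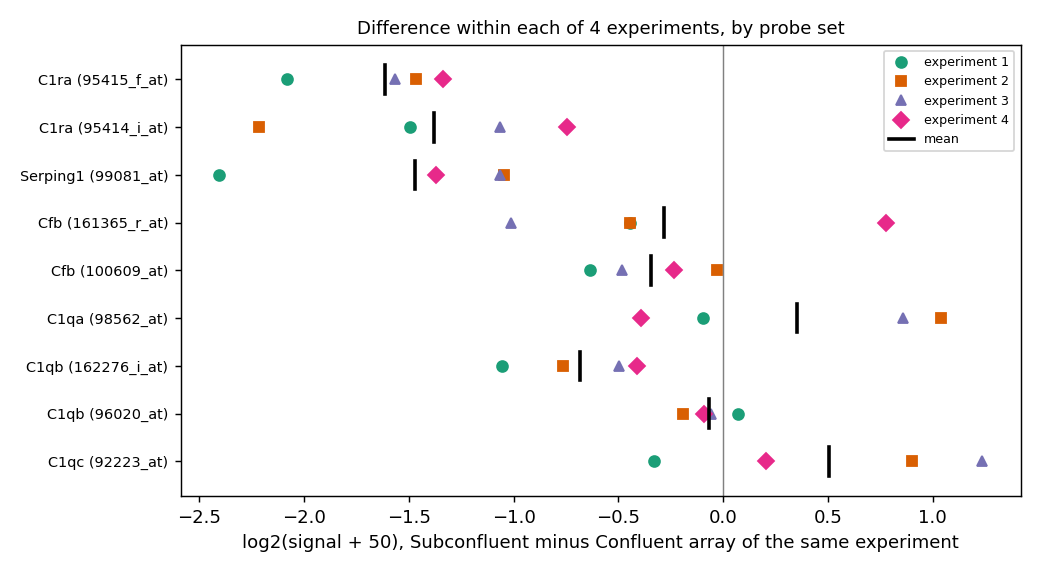
Difference in log2(signal + 50), Subconfluent minus Confluent, within each of the 4 experiments (points) and on average (black bar) for the 9 member probe sets. All 4 points lie left of 0 for both C1ra probe sets, Serping1, the stronger C1qb probe set and the weaker Cfb probe set, while C1qa and C1qc lie on both sides.

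Most other complement genes were not measured well enough for a test. Of 28 with a probe set, 25 averaged between 5.14 and 185 signal units, among them the lectin pathway genes Masp1, Masp2, Mbl1 and Mbl2, the terminal component genes Hc and C9 and the inhibitor genes Cd55, Cd46 and Cfi. Among the 3 tested, 1 fell and 0 rose, where 4.06% of all tested probe sets fell and 2.75% rose. Clu, which encodes clusterin, a secreted chaperone that also blocks the terminal complex, read 1347, 321, 986 and 1795 on Subconfluent replicates 1 to 4, against 14658, 4384, 4013 and 6006 on Confluent replicates 1 to 4. The groups were far apart (log2 difference -2.67 ± 0.50 SE, limma adjusted p = 0.0163; -3.40 within lot A, -1.56 within lot C), and a second Clu probe set gave -2.71. C5ar1, the receptor of the fragment C5a, averaged 237 ± 33.3 in subconfluent and 314 ± 37.8 in confluent cells (SD, n = 4), a difference of -0.34 with an interval of -0.71 to 0.03 (adjusted p = 0.225; -0.16 in lot A, -0.46 in lot C). Cr1l, the mouse membrane regulator Crry that protects cells from C3 and C4 fragments, averaged 716 ± 316 in subconfluent and 630 ± 142 in confluent cells (SD, n = 4), a difference of 0.12 with an interval of -0.46 to 0.70 (adjusted p = 0.8288; 0.31 within lot A, -0.40 within lot C).

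Genes of the cytokine pathways known to induce complement genes (receptors, kinases, transcription factors and feedback inhibitors) were lower in part. Of 25 such genes tested, 5 fell and 0 rose, where 4.06% of all tested probe sets fell. With the pairs as a block 12 fell, against 11.3% of all, and 12 were negative at an unadjusted p under 0.05, against 12.8% of all. The median log2 difference was -0.60, against 0.01 over all probe sets tested. The list was chosen with earlier results of these data known, so these comparisons with all probe sets describe it and do not test it. Lifr, the receptor chain of leukaemia inhibitory factor, averaged 291 ± 66.3 in subconfluent and 611 ± 141 in confluent cells (SD, n = 4; -0.95, limma adjusted p = 0.0249), and its 4 other probe sets, all under the signal minimum, gave -0.58 to -0.20. Tnfrsf1a, the main receptor of tumour necrosis factor, averaged 1668 ± 389 in subconfluent and 3253 ± 927 in confluent cells (SD, n = 4; -0.94, adjusted p = 0.0383), and its other probe set, under the minimum, gave -0.18.

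The other 3 were transcription factors. Irf1, an interferon-induced activator, averaged 313 ± 52.6 in subconfluent and 568 ± 112 in confluent cells (SD, n = 4; -0.76, limma adjusted p = 0.0328). Irf9, the DNA-binding part of the type I interferon complex, averaged 289 ± 28.7 in subconfluent and 500 ± 118 in confluent cells (SD, n = 4; -0.68, adjusted p = 0.0482). Relb, of the NF-kB family, averaged 158 ± 53.4 in subconfluent and 373 ± 114 in confluent cells (SD, n = 4; -1.02, adjusted p = 0.0414), and its other probe set, under the minimum, gave -0.24. Relb reached the mean of 200 through the Confluent arrays, and without it 4 of these genes fell. Each of these 5 genes was lower in 4 of 4 pairs and had groups that did not overlap. The same arrays gave the calls, so this is not separate evidence. Of the 25 tested inducer genes, 8 had all Subconfluent values under all Confluent values, where 5.87% of all 12422 probe sets did so. All 5 calls were lost without Subconfluent replicate 1 or 2 or Confluent replicate 3 or 4, 4 without Subconfluent replicate 4 or Confluent replicate 1, 3 without Subconfluent replicate 3 and 0 without Confluent replicate 2 (adjusted p up to 0.110). In the order Lifr, Tnfrsf1a, Irf1, Irf9 and Relb the log2 differences were -0.93, -1.23, -0.99, -1.04 and -1.49 in lot A, against -1.15, -0.46, -0.59, -0.70 and -1.32 in lot C. Osmr, the oncostatin M receptor, named here after its value was seen, passed with the pairs as a block only (-1.36, adjusted p = 0.00584, against 0.0675).

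**Figure D4:**
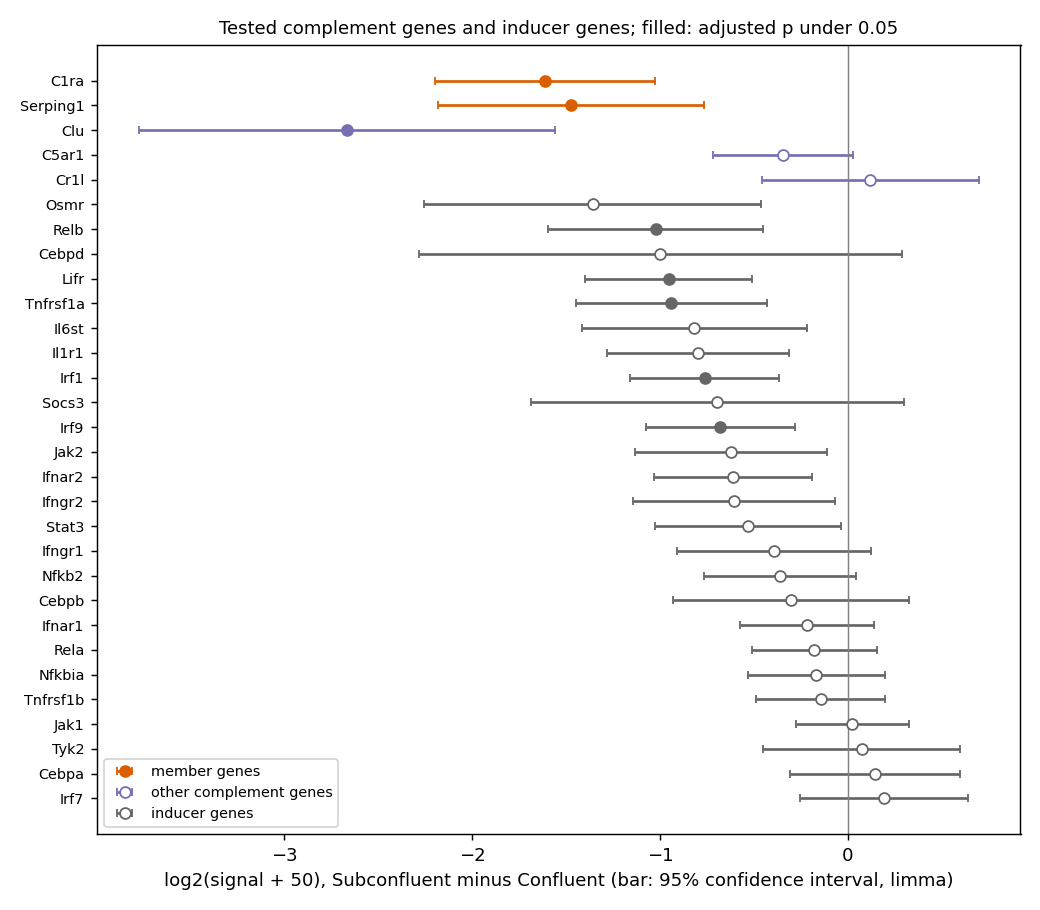
Log2 difference, Subconfluent minus Confluent, with 95% confidence intervals from limma, for the 2 tested members, the 3 other tested complement genes and the 25 tested inducer genes. Filled points passed at an adjusted p under 0.05. C1ra, Serping1 and Clu lie furthest left among the filled points.

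Markers of other cells moved beside these results in part. The summed signal of 17 macrophage markers other than Cd14 was 1140 to 1278 on Subconfluent and 1398 to 1485 on Confluent arrays. Of the 18 macrophage markers 2 reached a mean of 200, Cd14 and Laptm5, and neither passed. For Cd14 the limma adjusted p was 0.0563, or 0.0228 with the pairs as a block. Laptm5 went the other way, higher in subconfluent cells by a log2 difference of 0.27. Ptprc averaged 11.2, Tyrobp 22.1 and Adgre1 27.9, and 0 markers were listed at 0. Some weak macrophage markers were lower in subconfluent cells in 4 of 4 pairs, although none passed without a signal minimum. Others were lower in 2 of 4 pairs only, among them Csf1r (log2 difference -0.04), Tyrobp (-0.04), Adgre1 (-0.20), Ptprc (0.08) and Fcer1g (0.17). The markers described next are among those that were lower. Mpeg1 averaged 33.3 ± 4.90 in subconfluent and 134 ± 61.4 in confluent cells (SD, n = 4; limma adjusted p = 0.0650, or 0.0354 with the pairs as a block), with no overlap, while its other, dimmer probe set gave 0.29. Lyz2 averaged 8.40 ± 3.07 in subconfluent and 51.0 ± 47.4 in confluent cells, and Itgb2 124 ± 40.9 in subconfluent and 218 ± 44.5 in confluent cells (SD, n = 4). The Itgb2 groups overlapped. Cd14, which stromal cells can also express, averaged 1521 ± 250.0 in subconfluent and 2541 ± 624 in confluent cells (SD, n = 4). The fibroblast and pericyte markers summed to 38115 to 53021 on Subconfluent and 65542 to 94675 on Confluent arrays. The strongest in that sum were Col1a1 (mean signal 18573), Col1a2 (14332), Fbln2 (10369) and Dcn (9092). Of the 10 tested, 4 fell (Col1a2, Col3a1, Dcn and Lum) and 0 rose, where 4.06% of all tested probe sets fell. The log2 difference was negative for 7 of the 10, and positive for Fbln2 (0.20), Fbln1 (0.14) and S100a4 (0.01), so the class did not move as a whole. The block fit called 6 of the 10 tested lower, against 11.3% of all. The fit without a signal minimum called 3 of the 15 with a probe set, against 1.09% of all. These were Col1a2, Dcn and the weak Fap (mean signal 35.3). Col3a1 and Lum did not pass in that fit (limma adjusted p = 0.0602 and 0.0567). Lum averaged 153 in subconfluent cells and passed the minimum through the Confluent arrays. The 14 endothelial markers summed to 1252 to 1595 on Subconfluent and 1517 to 1977 on Confluent arrays, and 0 passed. The part of these shifts in the falls of C1ra and Serping1 was not tested.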

How the data were processed

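RNA of 4 subconfluent and 4 confluent cultures was measured on 8 arrays. Per the labels, the authors obtained each deposited signal, on a linear scale, from Affymetrix's statistical algorithm with a scaling target of 500. The genome build and software version are not given in the sources used here, and detection calls were not used here. After the lowest and highest 2% were left out every array averaged 500 (rounded), so nothing was rescaled. Controls (66 of 12488 probe sets) were left out. The annotation gave 1 symbol for 10833 of the others, several for 396 and none for 1193, and of the first 10817 had an identifier in the mouse RefSeq gene table (GRCm38.p6), with 0 symbols updated. Where a gene had several probe sets, the one of highest mean signal represented it.

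The 6007 probe sets that averaged 200 or more were tested with limma 3.58.1 (R 4.3.3; linear model without a block, moderated variances with a trend, log2 of the signal plus 50), Benjamini-Hochberg adjusted over all of them, and checked on simulated data. Single genes were also given an exact two-sided permutation test over the 70 splits of the arrays, whose smallest p is 0.0286. Arrays of the same experiment number correlated in their deviations from the group means (0.348 to 0.516), and those of different numbers at most at 0.0681. Other fits used another pseudocount, minimum or normalization, a block for experiment or chip lot, weights, a covariate, no trend, or fewer arrays. Members and gene lists were chosen with earlier results of these data known. Named were all members, up to 8 other complement genes and up to 4 inducer genes with the smallest p plus all that passed, and for each tested member the 3 most alike genes. Python 3.11.15, pandas 2.3.3, numpy 2.4.6 and matplotlib 3.10.9 made tables and plots.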

Additional observations from a re-analysis of the deposited data

Results flagged for a closer look

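Among 34 sets of 4 arrays checked for a single array far from the other 3 on the log2 scale, 3 were past Dixon's 95% critical ratio for 4 values, where chance gives about 1 in 20. The weaker C1ra probe set read 24.2 on Subconfluent replicate 2, against 367 to 478 on the other Subconfluent arrays. That array had the largest scale factor (13.3). The first Cfb probe set read 27.6 on Subconfluent replicate 3, against 69.8 to 74.9 on the others of its group. It read 20.3 on Confluent replicate 4, against 107 to 120 on the other Confluent arrays. These Cfb values are near the noise of the arrays.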

How the results depend on the processing

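The count of members that fell was 2 and that of other complement genes that fell was 1, and within lot C both counts were 0, in a fit of 3 arrays whose lone Confluent array has no spread of its own, while the differences of C1ra, Serping1 and Clu stayed negative (-1.42, -1.12 and -1.56). When single arrays were left out, 1 to 2 members and 1 other complement gene fell. No member or other complement gene rose in any of these fits. C1ra stayed between -1.70 and -1.45 and Serping1 between -1.67 and -1.31 on the log2 scale, both past the threshold, when the pseudocount, signal minimum, normalization, block for experiment or lot, scale factor, weights or variance trend was changed. With the pairs as a block (replicate block) the counts were again 2 and 1. The exact permutation test gave 0.0286, the smallest it can give, for C1ra, Serping1, Clu and the stronger C1qb probe set. It gave the same for Lifr, Irf1, Tnfrsf1a, Relb and Irf9. Every probe set with all Subconfluent values under all Confluent values gets this p, and 5.87% of all probe sets had such values. Without a signal minimum Irf1, Tnfrsf1a, Relb and Irf9 no longer passed (adjusted p = 0.0602 to 0.0959) and Lifr did (0.0493). Irf9 also lost its call with quantile normalization (0.0561) and median centring (0.0592). The causes were not tested. Cfb, C1qa, C1qb and C1qc were under the minimum, so limma fits that kept it gave them no p-value. The exact permutation test, which used no minimum, gave 0.0286 for C1qb, 0.314 for C1qa, 0.314 for C1qc and 0.429 for Cfb. Without a minimum together with the block, an alternative chosen after seeing the data, none of those 4 passed (adjusted p = 0.0945 to 0.644). Signals under about 200 limit what these genes can show.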
